A study of Mus musculus with 10 samples.

Results

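The nuclear factor I (NFI) family of mouse comprises *Nfia*, *Nfib*, *Nfic* and *Nfix*, and these 4 genes were followed through 6 lists of chromatin immunoprecipitation sequencing (ChIP-seq) peaks. They were chosen by name from the 21951 protein-coding genes of the GENCODE M21 basic annotation, and every peak within 2 kb of 1 of their transcription start sites (TSSs) or inside the gene was counted. By the methods, neural stem cells (NSCs) were taken from whole brains of *Nestin-CreERT2*;*Qk* L/L pups at postnatal day 1, of an FvB/C57BL6 hybrid strain by the labels, and were differentiated in culture in medium with the thyroid hormone T3. In *Qk*-/- cells, exon 2 of *Qk*, flanked by loxP sites in this line, was deleted by 4-hydroxytamoxifen, which activates the CreERT2 recombinase driven by the *Nestin* promoter. The labels call the WT cells wild type, and whether they were the same cells before deletion or were treated with 4-hydroxytamoxifen is not given in the sources used here. Each genotype was precipitated with antibodies against Qki-5, RNA polymerase II (Pol II) and Srebp2, with 1 library per antibody and genotype and no replicate, so the error between cultures is unknown and the genotypes were not tested against each other.

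NFI proteins are transcription factors that bind DNA as dimers, and each subunit recognizes the motif TTGGC, which reads GCCAA on the other strand. In the developing brain, NFIA and NFIB promote the switch of neural progenitors from making neurons to making glia, NFIX regulates neural stem cells, and NFIC is best known for its role in tooth root formation. Qki-5 is the nuclear isoform of Qki, an RNA-binding protein required for myelin formation, and the study asked whether it also acts at promoters together with Srebp2, the activator of sterol synthesis genes. The motif search of the study named the NFI site among those of possible partners of Qki-5, so the NFI genes could in turn be asked whether they carry Qki-5 themselves.

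Peaks are stretches of DNA enriched in the precipitated chromatin over the input, and the fold enrichment deposited for each is the ratio between them at its summit. The WT lists held 7539 peaks for Qki-5, 32280 for Pol II and 77 for Srebp2, and the *Qk*-/- lists 427, 12835 and 28. Read totals are unknown here, so folds and ranks describe a peak only against its own list, and a missing peak means only that none was called. The study describes longer lists of Qki-5 and Srebp2 peaks than those used here, so counts, ranks and absences hold for the lists used here alone. Cells for Srebp2 were at passage 8 and had separate inputs, and the rest were at passage 7. Peaks of Qki-5 and Pol II bear names starting with mNSC, although the labels say differentiated oligodendrocytes. Of 9 oligodendrocyte markers, 1, *Cnp*, had a WT Pol II promoter peak, whereas the myelin genes *Mag* and *Mog* had none, against 4 of 4 NSC markers, 4 of 5 astrocyte markers, 2 of 3 precursor markers, 1 of 5 neuron markers and 0 of 5 microglia markers. The defining markers of the labelled cell type were thus largely without Pol II peaks, and the part of other cell types in the NFI peaks was not tested. At *Qk* itself the WT Qki-5 promoter peak (8.13-fold) had no counterpart in *Qk*-/- cells, while Pol II was called at its promoter in both genotypes. The Pol II call does not check the deletion, since exon 2 lies inside the gene.

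All 4 NFI genes had a WT Qki-5 peak at a promoter, which 19.4% of protein-coding genes had. All 4 also had Pol II at a promoter in WT cells, against 54.1% of genes, and in *Qk*-/- cells, against 46.5%. The 19.4% is over genes with and without Pol II, while 92.0% of promoter Qki-5 peaks overlapped a WT Pol II peak. The share with Qki-5 among genes with Pol II was not computed. In the *Qk*-/- Qki-5 list, where 0.87% of genes had a promoter peak, none of the 4 NFI genes appeared. None had a Srebp2 peak in WT or *Qk*-/- cells, where 0.292% and 0.118% of genes had one at a promoter. Within the 4 genes lay 12 WT Qki-5 peaks, 4 at promoters and 8 in introns, beside 71 WT Pol II peaks, 7 at promoters and 64 intragenic. The *Qk*-/- Pol II list held 10 peaks there, 9 at promoters and 1 intragenic.

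The windows around the strongest or best described intronic Qki-5 summit of each gene are printed because all 8 intronic Qki-5 peaks held the NFI motif TTGGC within 100 bp of the summit. Capitals mark the motif on either strand. Each sequence is the plus strand of mm10 (GRCm38), read from the RefSeq copy of that build, and all but *Nfia* are transcribed from the minus strand.
*Nfia* intron 2, chr4:97868991-97869191: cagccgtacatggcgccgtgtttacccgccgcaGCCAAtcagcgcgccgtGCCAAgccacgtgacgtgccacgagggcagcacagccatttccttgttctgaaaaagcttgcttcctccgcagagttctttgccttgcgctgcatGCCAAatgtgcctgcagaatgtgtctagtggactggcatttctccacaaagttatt
*Nfib* intron 2, chr4:82400071-82400271: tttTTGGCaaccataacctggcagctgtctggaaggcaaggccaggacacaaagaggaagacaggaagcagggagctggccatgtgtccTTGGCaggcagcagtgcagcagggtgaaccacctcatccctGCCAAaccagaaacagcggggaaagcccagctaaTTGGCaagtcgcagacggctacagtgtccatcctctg
*Nfic* intron 2, chr10:81416972-81417172: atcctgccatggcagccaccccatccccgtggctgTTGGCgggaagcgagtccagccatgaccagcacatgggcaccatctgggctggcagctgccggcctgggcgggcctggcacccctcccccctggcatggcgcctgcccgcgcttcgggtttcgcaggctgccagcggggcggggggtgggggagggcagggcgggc
*Nfix* intron 1, chr8:84794145-84794345: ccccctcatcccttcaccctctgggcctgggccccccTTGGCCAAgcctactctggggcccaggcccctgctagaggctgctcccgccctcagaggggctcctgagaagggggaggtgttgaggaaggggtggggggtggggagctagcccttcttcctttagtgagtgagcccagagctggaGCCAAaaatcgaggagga
The *Nfib* window held the motif 4 times, the nearest 9 bp from the summit. The windows of *Nfia* and *Nfix* held 3 each, and in *Nfix* a pair on opposite strands overlapped. The *Nfic* window held 1, 63 bp from the summit. The 8 intronic windows together held 19 motifs, with 1 to 4 in each and the nearest 9 to 63 bp from the summit. A motif this short is frequent, and it lay in 57.4% of 1347 intragenic WT Qki-5 windows of this length. This background, like the other shares over all intragenic peaks given below, left out peaks at a promoter of any gene. The NFI counts left out only peaks at promoters of the gene itself, so they keep the printed *Nfic* peak near *Mir1191b*. At the NFI promoters 1 of 4 windows held one, that of *Nfib*, against 33.8% of 4594 promoter windows. Over all 12 NFI peaks the count was 9, against 42.7% of all WT Qki-5 peaks. The median GC content was 58.0% in the 8 intronic windows and 52.2% in all intragenic ones, and its part in the counts was not tested.

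The palindromic NFI site, TTGGC and GCCAA separated by 5 bases of any kind, was in none of the 12 windows and in 0.0664% of all of them. It was found once when whole peaks were searched, in the *Nfia* intron 2 peak, 175 bp from the summit, and in 8 of 7533 whole WT Qki-5 peaks (0.106%). The site is shown with 20 bases on each side, on the plus strand, with both motifs in capitals.
*Nfia* intron 2, chr4:97869239-97869293: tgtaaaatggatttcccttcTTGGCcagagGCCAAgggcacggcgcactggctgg
A match to these letters is a description of the sequence and not evidence that an NFI protein bound there.

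The promoter with the strongest Qki-5 peak in the family by GENCODE starts, *Nfix*, had no TTGGC motif near its summit. The window there was mostly a GA repeat, shown in capitals where an unbroken run of alternating G and A reached 20 bases.
*Nfix* promoter, chr8:84774273-84774473: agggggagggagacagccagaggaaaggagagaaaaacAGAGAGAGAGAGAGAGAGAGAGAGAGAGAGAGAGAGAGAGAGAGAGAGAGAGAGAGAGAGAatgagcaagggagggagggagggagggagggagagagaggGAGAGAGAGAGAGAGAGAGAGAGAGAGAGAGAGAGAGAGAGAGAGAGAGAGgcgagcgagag
The longer run had 61 bases and the shorter 51. A run of 61 bases or more, on either strand, was in 11 of 7533 WT Qki-5 windows (0.146%), and the longest run at any other NFI peak had 5 bases. How reads from repeats were treated is not given in the sources used here.

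The promoter peaks of Qki-5 at GENCODE starts differed in strength among the 4 genes, and each was at 1 GENCODE start site only. *Nfix* had the highest, from 84774175 to 84775115, with 7.51-fold over input and rank 959 of 7539. *Nfib* followed with a peak 2043 bp wide from 82505261 to 82507303 (6.80-fold, rank 1421), which also lay at the promoter of the neighbouring gene *Gm11266*. The *Nfic* peak, from 81430687 to 81431103, had 6.31-fold (rank 2057). *Nfia* had the lowest, from 97777181 to 97777415, with its summit 290 bp upstream of the nearest TSS, 5.29-fold (rank 4012), just below the middle of the list, whose median was 5.34-fold. With 1 library, the error of these folds is unknown and neighbours in this order cannot be told apart.

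The family has 7 start sites when TSSs of a gene up to 1 kb apart are joined, and 4 of them carried Qki-5 and Pol II together in WT cells, against 15.6% of 27586 start sites of protein-coding genes. Pol II, with or without Qki-5, was called at 6 of the 7, against 46.7%. Among start sites with Pol II, Qki-5 was thus at 4 of 6 in the family and at 4305 of 12895 over all protein-coding genes. *Nfia*, on chromosome 4 from 97777608 to 98118874, and *Nfib*, on chromosome 4 from 82290173 to 82505770, have 1 start site each, with both proteins. *Nfic*, on chromosome 10 from 81396186 to 81455635, has 3. Its 5′-most start at 81455635 had no peak in any list. The middle start at 81431005, 24.7 kb downstream by the position of its Qki-5 summit, carried Qki-5 63 bp from the TSS, in an untranslated exon, and Pol II at 21.8-fold. The third, at 81427114 to 81427187, carried Pol II at a similar 20.1-fold but no Qki-5. Of the 2 Pol II-bound starts of *Nfic*, with ranks of 3075 and 3653 in the Pol II list, 1 thus had a called Qki-5 peak. The 5′-most GENCODE start of *Nfic* rests on 1 transcript, and RefSeq begins the gene at 81431919. By RefSeq the Qki-5 peak was at the 5′-most start of *Nfic*. The gene was then 35.7 kb long, with 2 intragenic WT Pol II peaks in place of 4.

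*Nfix*, on chromosome 8 from 84704712 to 84800344, has 2 start sites, and its Qki-5 peak was at the downstream one. The 5′ site at 84800140 to 84800344 carried Pol II at 9.76-fold (rank 8897) with no Qki-5 peak. The downstream site at 84773396 to 84774369, inside intron 1 of the longer transcripts, carried Pol II at 7.41-fold (rank 10985) and Qki-5 with its summit 4 bp from a TSS. In *Nfix* Qki-5 was therefore called at the start with the lower of the 2 Pol II folds, and in *Nfic* at the start with the higher.

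**Figure D1:**
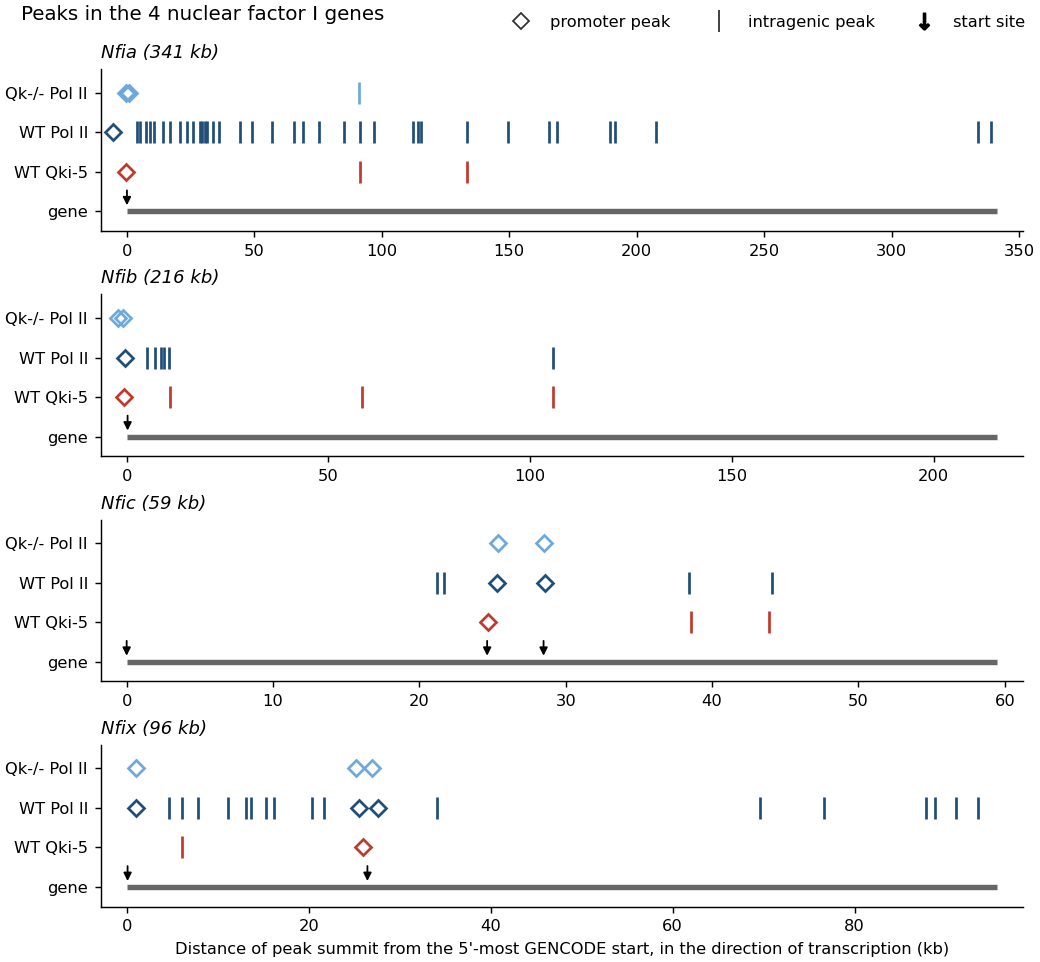
Positions of called peaks in the 4 NFI genes, with the distance of each summit from the 5′-most GENCODE start on the horizontal axis in kb, and 1 row per list (1 library each). Diamonds are promoter peaks, vertical bars intragenic peaks and arrows start sites. By GENCODE, the Qki-5 promoter peaks of *Nfic* and *Nfix* sit at internal start sites, although by RefSeq that of *Nfic* is at the 5′-most start. In the row of *Qk*-/- Pol II 1 intragenic bar remains, in *Nfia*.

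The 8 intragenic Qki-5 peaks were 3 in *Nfib*, 2 in *Nfia*, 2 in *Nfic* and 1 in *Nfix*, all with the summit in an intron. Among 11879 protein-coding genes with Pol II at a promoter, 7.24% had any intragenic Qki-5 peak. The NFI genes are long by GENCODE, from 59.5 kb in *Nfic* to 341 kb in *Nfia*, and long genes had more such peaks. In the length band of *Nfia* and *Nfib*, 200 to 400 kb, 30.7% of 397 genes had at least 1, 12.1% at least 2 and 4.28% at least 3. In that of *Nfic* and *Nfix*, 50 to 100 kb, the shares were 9.88% for at least 1 and 2.40% for at least 2. By its RefSeq length *Nfic* would fall below this band.

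The strongest intragenic Qki-5 peak lay in intron 2 of *Nfib* from 82400046 to 82400386, 106 kb into the gene, at 7.57-fold (rank 858). *Nfib* had another in the same intron from 82494912 to 82495145 (6.16-fold, rank 2227) and a weak one from 82447229 to 82447547 (3.49-fold, rank 7063). The 2 of *Nfic*, both in intron 2, were a strong peak from 81416959 to 81417188 (7.33-fold, rank 1009), which also falls within 2 kb of the microRNA gene *Mir1191b*, and a weaker one from 81411584 to 81412144 (4.36-fold, rank 5800). The peak in intron 1 of *Nfix*, from 84794044 to 84794534, reached 7.27-fold (rank 1061). *Nfia* had peaks of middling rank in intron 2, from 97868924 to 97869275 (5.53-fold, rank 3437) and from 97910786 to 97911289 (5.81-fold, rank 2823). Of the 12 Qki-5 peaks, 9 were in the stronger 50% of the list, and the exceptions were the *Nfia* promoter and the weaker intronic peaks of *Nfib* and *Nfic*. In *Nfia*, *Nfib* and *Nfic* an intronic Qki-5 peak had a higher fold than the promoter peak, and in *Nfix* it did not. Over the whole list, too, the median fold was higher in intragenic peaks (5.61) than in promoter peaks (5.11). The error of these folds is unknown with 1 library.

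**Figure D2:**
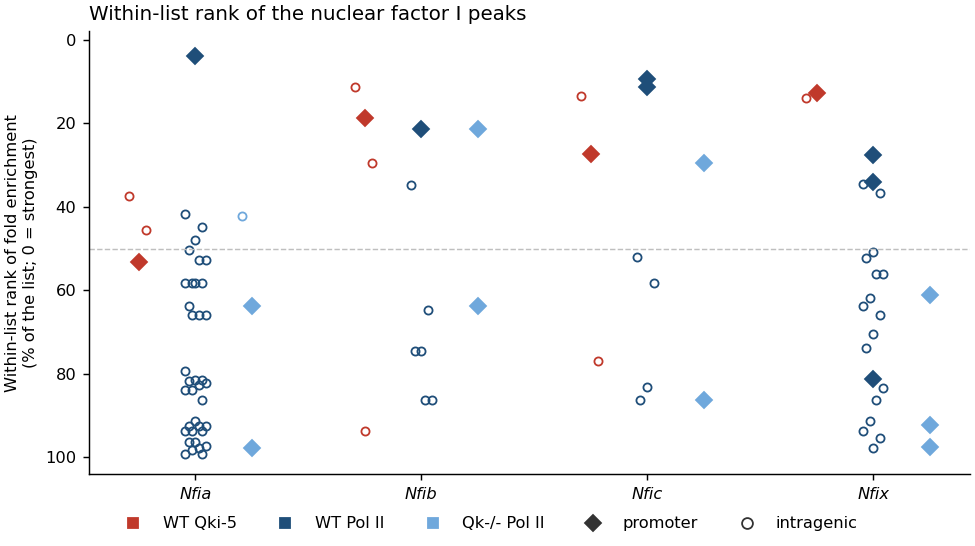
Within-list rank of fold enrichment for every peak of the NFI genes, as a percentage of the list on the vertical axis (0 is the strongest), by gene and list, with promoter peaks as filled diamonds and intragenic peaks as open circles (1 library per list). Qki-5 ranks reach 11.4% in an intron of *Nfib*, and in the WT Pol II list the intragenic peaks of *Nfia*, *Nfib* and *Nfic* lie below the promoter peaks of the same gene.

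Most NFI peaks of Qki-5 overlapped Pol II, as did most Qki-5 peaks of the whole list. Of the 12 Qki-5 peaks, 11 overlapped a WT Pol II peak (91.7%, exact binomial 95% interval 61.5 to 99.8%, which covers counting error only), against 79.3% of all Qki-5 peaks. At promoters 4 of 4 did, against 92.0% of promoter Qki-5 peaks, although at *Nfia* the 2 summits were 5156 bp apart. In introns 7 of 8 did, against 63.5% of intragenic Qki-5 peaks. The summits of these 7 intronic pairs were 7 to 186 bp apart, closest in *Nfix*, where the Qki-5 summit was 7 bp from that of a 6.84-fold Pol II peak. The exception was the weak *Nfib* peak at 82447229, whose nearest WT Pol II peak was 46907 bp away. At a fold enrichment of at least 5 in both lists, 7 of 10 peaks overlapped, and with summits required within 250 bp 66.7% of the 12 did. The shares of all Qki-5 peaks under these 2 rules were not computed.

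The Pol II peaks of the family were very unevenly shared. *Nfia* had 37 intragenic WT Pol II peaks, *Nfix* 17, *Nfib* 6 and *Nfic* 4. At least 37 were found in 24 of 11879 Pol II-bound genes (0.202%), *Nfia* included, and in 3 of the 397 of its length. At least 17 were found in 78 genes (0.657%) and in 26 of the 1670 genes of the length of *Nfix* (1.56%). *Nfib* and *Nfic* were less unusual, since 24 genes of the length of *Nfib* (6.05%) had at least 6 peaks and 155 of the length of *Nfic* (9.28%) had at least 4. Per 100 kb the order changed, with 17.8 intragenic peaks in *Nfix*, 10.8 in *Nfia*, 6.73 in *Nfic* and 2.78 in *Nfib*. Densities at least this high were found in 8.45%, 12.7%, 16.9% and 23.4% of Pol II-bound genes.

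These intragenic Pol II peaks were weak and lay mostly in the first introns. Their median fold was 3.89, with a range of 2.88 to 7.19, against 4.25 for all intragenic WT Pol II peaks, and 8 of the 64 reached 5-fold. With a fold of at least 5, the 71 Pol II peaks of the family fell to 14, and the counts by gene above rest on the weaker peaks. In *Nfia* 30 of the 37 were in intron 2, and 18 lay within 50 kb of the start. In *Nfix* 10 of the 17 were in intron 1. In *Nfib* 5 of the 6 were within 50 kb of the start and the sixth at 106 kb, where it overlapped the strongest intronic Qki-5 peak.

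**Figure D3:**
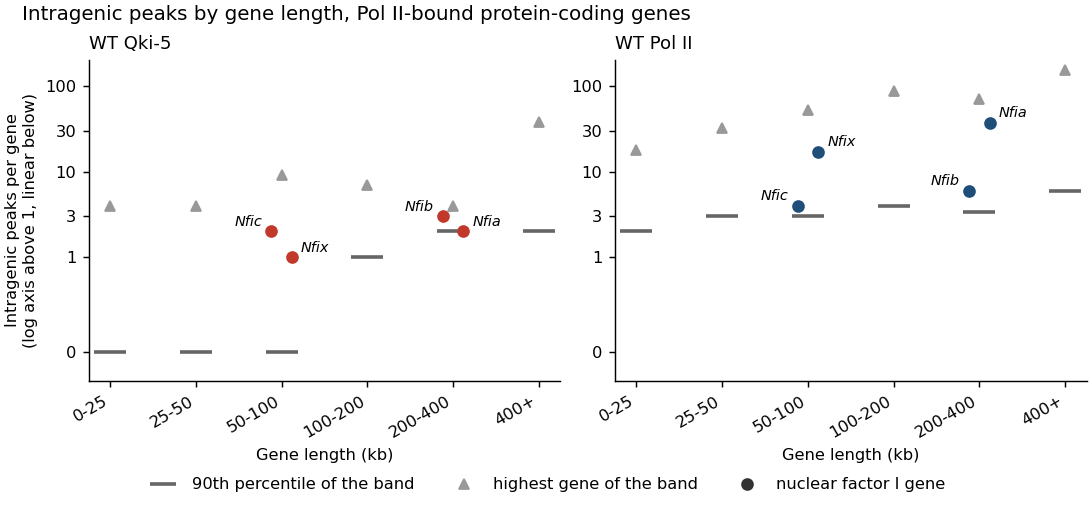
Intragenic peaks per gene by gene length in kb for the 11879 protein-coding genes with a WT Pol II promoter peak, for Qki-5 (left) and Pol II (right), on an axis that is linear below 1 and logarithmic above. Grey bars are the 90th percentile and triangles the highest gene of each length band, and circles are the NFI genes. *Nfia* (37) and *Nfix* (17) stand well above the 90th percentile for Pol II and below the highest gene of their band.

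Pol II at the NFI promoters ranked highest at *Nfia*, in a single peak 9893 bp wide from 97771044 to 97780936 (30.6-fold, rank 1241 of 32280). Its summit lay 5446 bp upstream of the GENCODE start. *Nfic* followed with 21.8-fold (rank 3075), *Nfib* with 13.1-fold (rank 6929) and *Nfix* with 9.76-fold (rank 8897). In the *Qk*-/- list, within 2 kb of a start, *Nfib* came first at 13.6-fold (rank 2736 of 12835), then *Nfic* at 11.7-fold (rank 3776), *Nfix* at 7.02-fold (rank 7861) and *Nfia* at 6.78-fold (rank 8170). The *Nfia* value there depends on the window. The wide WT peak overlapped 3 separate *Qk*-/- peaks with a summed width of 3834 bp, and the strongest of these, from 97771292 to 97773156 (11.4-fold, rank 3958), spanned the WT summit but lay outside 2 kb of the GENCODE start. The 2 orders are given side by side, and no difference between the lists was tested.

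Promoter peaks of Pol II were mostly called in both genotypes, whereas intragenic ones mostly were not. Of the 7 promoter peaks of the family, 6 overlapped a *Qk*-/- Pol II peak, against 60.9% of all promoter peaks. At 10-fold or more 4 of 4 did, against 96.2%, at 7 to 10-fold 2 of 2, against 63.2%, and at 3.5 to 5-fold 0 of 1, against 5.92%. The exception was a 3.89-fold peak of *Nfix* from 84772574 to 84772884, at the downstream start. Of the 64 intragenic peaks 1 did, against 5.8% of 10097. The 10097 left out peaks at a promoter of any gene, whereas the 64 include some at promoters of *Gm16104*, *Mir1191b* and *G430095P16Rik*. The 63 without a counterpart included both intronic peaks of over 6.8-fold in *Nfix* and that of 7.17-fold in *Nfib*. Overlap rose with fold in the whole list, from 0.842% of intragenic peaks below 3.5-fold to 77.2% of those above 10-fold, and the *Qk*-/- list held fewer peaks in all, so the NFI counts are read against the same fold. Below 3.5-fold 0 of 18 intragenic NFI peaks had a counterpart, against 0.842% of all, at 3.5 to 5-fold 0 of 38, against 1.76%, at 5 to 7-fold 1 of 6, against 7.09%, and at 7 to 10-fold 0 of 2, against 25.5%. These shares lie close to the background, and the depth of the *Qk*-/- library, which would move them, is unknown.

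**Figure D4:**
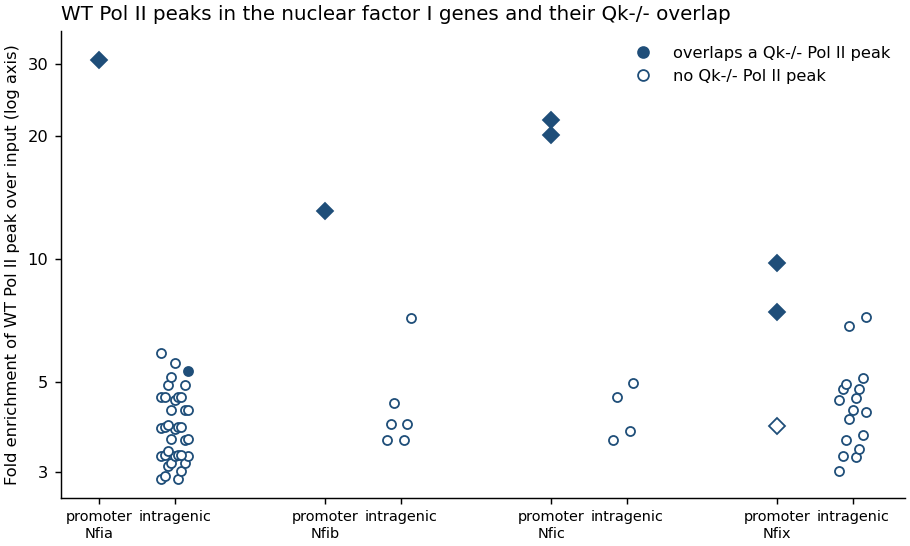
Fold enrichment over input (log axis) of the 71 WT Pol II peaks of the NFI genes, by gene and by promoter (diamonds) or intragenic position (circles), 1 library. Filled symbols overlap a *Qk*-/- Pol II peak, as 6 of 7 promoter peaks and 1 of 64 intragenic peaks do.

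The 1 intragenic Pol II peak with a *Qk*-/- counterpart was at the *Nfia* intron 2 site whose Qki-5 peak holds the palindromic NFI sequence. That sequence, from 97869259 to 97869273, lies under the WT Pol II peak but just outside the *Qk*-/- Pol II peak. The WT Pol II peak from 97868169 to 97869341 was 5.32-fold, the *Qk*-/- Pol II peak from 97868228 to 97869254 was 9.43-fold (rank 5413), and the WT Qki-5 summit was 14 bp from that of WT Pol II. It was the only 1 of the 8 intronic Qki-5 peaks to overlap a *Qk*-/- Pol II peak, against 11.4% of intragenic Qki-5 peaks. RefSeq places the start of a long noncoding RNA, *Gm19417*, on the opposite strand at 97869009, 82 bp from the Qki-5 summit, and GENCODE basic does not list it. This gene was singled out after its values were seen.

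Starts outside the GENCODE basic set lay at some other peaks counted as intragenic. When the full GENCODE set and RefSeq were searched, 2 of the 8 intronic Qki-5 peaks had a start within 500 bp of the summit, against 7.87% of intragenic Qki-5 peaks. These were the *Gm19417* site and the *Nfia* peak at 97910786, where a processed *Nfia* transcript (Nfia-206) starts at 97911033. Of the 64 intragenic Pol II peaks 3 did, against 8.8%, namely those at the same 2 sites and the 7.19-fold peak of *Nfix* from 84779415 to 84780837, which lies at RefSeq starts of *Nfix* and had no *Qk*-/- counterpart. Among all intragenic WT Pol II peaks, 11.6% of those near such a start and 5.25% of the others overlapped a *Qk*-/- peak.

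RefSeq also extends *Nfia* upstream by 199.5 kb, to 97578066, and this region held 3 Qki-5 peaks with a higher fold than any in the GENCODE extent of the 4 genes. It contained 5 WT Qki-5 peaks of 5.31-fold to 11.7-fold, all overlapping WT Pol II, and 17 WT Pol II peaks beside the wide peak at the start. The strongest, from 97649239 to 97649808, was 11.7-fold and ranked 111 of 7539. The one nearest the gene, from 97771982 to 97772956, was 8.65-fold (rank 441), lay under the wide Pol II peak and overlapped the RefSeq starts at 97772448 to 97772561. By RefSeq starts *Nfia* thus had the highest promoter Qki-5 fold of the 4 genes, in place of the lowest. That change rests on 2 RefSeq transcripts, neither of them curated. The RefSeq start at 97777581 to 97777626, which has curated transcripts, carried the 5.29-fold peak. The RefSeq start at 97581943 carried Pol II in both genotypes, at rank 3677 of 32280 in WT and rank 4145 of 12835 in *Qk*-/- cells, with no Qki-5 peak. Counted with RefSeq transcripts, an alternative chosen after seeing the data, *Nfia* had 8 WT Qki-5 peaks and the family 17, and 8 of 14 start sites carried Qki-5 and Pol II. Some of these start sites share a peak, since *Nfib* and *Nfix* each had 1 Qki-5 promoter peak, counted at every start site within 2 kb. The share over all RefSeq start sites was not computed, so the count of start sites has no background.

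No Qki-5 peak of the family had a counterpart in *Qk*-/- cells. Of the 12 peaks 0 overlapped a *Qk*-/- Qki-5 peak, against 4.06% of all WT Qki-5 peaks. The *Qk*-/- Qki-5 list was short, so absence from it was the rule over the whole series.

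Known partners and targets of NFI proteins in neural cells were examined as a list of 12 genes. WT Qki-5 was called at 8 of their promoters, WT Pol II at 11 and *Qk*-/- Pol II at 11, beside 19.4%, 54.1% and 46.5% of all protein-coding genes. All 8 with Qki-5 also had Pol II, and 92.0% of all promoter Qki-5 peaks overlapped a Pol II peak. *Sox9*, which induces *Nfia* in glial progenitors and works with it, had a Qki-5 peak of 8.05-fold (rank 661) and Pol II of 102-fold (rank 9). The astrocyte gene *Gfap*, a direct NFI target, had Qki-5 of 7.96-fold (rank 694), and the radial glial gene *Fabp7*, also a target, 6.06-fold (rank 2420). *Hes1* and *Ezh2*, which NFI proteins repress in neural progenitors, had 5.72-fold and 4.78-fold. *Pou3f2* had 5.42-fold, *Zcchc24* 3.80-fold and *Olig2*, a regulator of the oligodendrocyte lineage, 3.53-fold. *Olig2* was the only gene of the list with a *Qk*-/- Qki-5 promoter peak (10.3-fold, rank 57 of 427). *Sox10*, which drives myelin genes and is restrained by NFIA, had neither Qki-5 nor Pol II at its promoter. *Apcdd1*, *Mmd2* and *Ski* had Pol II without Qki-5 at their promoters, although *Mmd2* had 2 intragenic WT Qki-5 peaks and *Ski* 1. None of the 12 genes had a Srebp2 peak.

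Genes whose pattern over the 6 lists was nearest to that of each member were found by the Euclidean distance over 12 values, the log2 number of peaks plus 1 and the log2 highest fold in each list. *Nfia* was nearest to *Myo10* (distance 0.463), with the same 3 Qki-5 and 38 WT Pol II peaks, followed by *Rfx4* (0.784) and *Tcf12* (0.841). *Nfic* was nearest to *Tle4* (0.411), *Nr2f1* and *Insr* (both 0.579). *Nfib* was nearest to *Nav2* (0.675), *Slc22a14* (0.683) and *Dclk2* (0.700), and *Nfix* to *Iqsec1* (0.722), *Kcnn2* (0.794) and *Rapgef3* (0.879). Within the family *Nfib* and *Nfic* were nearest to each other (0.857, with 7 genes closer to *Nfib* and 32 closer to *Nfic*). The distance of *Nfia* to the other members was 2.00 to 2.73, with 82 to 303 genes closer.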

How the data were processed

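Of 10 ChIP-seq samples, 6 had a peak list used here and 4 were inputs. As the methods describe, the authors used Trim Galore for trimming, Bowtie2 for alignment, SAMtools for removal of duplicates and MACS2 for calling peaks per library over its input at a q-value of 0.05. The submitters' processing notes list mm10, MACS2 2.1.2 and, in place of Bowtie2, Bowtie 1.2.2. The deposited fold enrichment is the ratio of pileup to local background at the summit. The deposited −log10 p-values and −log10 q-values come from the same program, and their score, also deposited, equals the −log10 q-value multiplied by 10. The lists give no read totals, so depth and precision are unknown.

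Python 3.11.15 with numpy 2.4.6 and pandas 2.3.3 was used for the peaks, and pysam 0.24.0 and samtools 1.23.1 for sequences. The interval was computed with scipy 1.17.1 and figures with matplotlib 3.10.9. A promoter was the region within 2000 bp of a TSS of GENCODE M21 basic, TSSs of a gene up to 1000 bp apart formed 1 start site, and peaks in a gene outside its promoters were intragenic. Shares over all intragenic peaks were taken over those in protein-coding genes that lay at no promoter of any gene. Overlap was at least 1 bp. Ranks ran over a whole list. The motif TTGGC was searched on both strands in windows of 201 bp, leaving out 6 Qki-5 peaks off the assembled chromosomes. The code was tested on simulated data. Named genes were the members, *Qk*, the partner and target list, cell type markers, the 3 genes most like each member, and genes that share a peak with a member. *Gm19417* was added later, and 1 marker of the lists is not reported here. The members and lists were chosen with earlier results of these data known. Alternatives were stricter thresholds, other promoter widths, summit rules, transcript sets, overlap rules, ranking by q-value and other motif windows. Input libraries and read signal were not analysed here.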

Additional observations from a re-analysis of the deposited data

How the results depend on the processing

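The 9 summary values of the NFI genes were recomputed to give 45 alternative values. Of these, 41 stayed within 1.5 times the reported count or inside the interval of the reported share or rank. That tally is not a measure of robustness. The 0 of 12 *Qk*-/- Qki-5 overlaps could not rise under stricter rules. The interval of the share was wide, and 70% at 5-fold and 66.7% with summits within 250 bp counted as inside it. Counting each annotated TSS by itself gave 11 of 17 TSSs with Qki-5 and Pol II in place of 4 of 7 start sites, and RefSeq transcripts gave 8 of 14, in both cases because more starts were counted. The shares over all genes under these 2 ways of counting were not computed. A fold of at least 5 left 14 of 71 WT Pol II peaks, since most were weaker. The palindromic NFI site in place of TTGGC was in 0 of 12 windows. With the summit required inside the promoter, 3 of 7 start sites kept both proteins, because the summit of the wide *Nfia* Pol II peak lies outside. The median rank of the 12 Qki-5 peaks was 2142 (binomial 95% interval 1009 to 4012) and 2307 by q-value. That interval treats the 12 peaks as independent draws, which peaks of the same gene in 1 library need not be. It covers no error between cultures. No paired analysis was possible because each antibody and genotype has 1 library and no result comes from a test. Since the lists give no depth, weak peaks missing from the *Qk*-/- lists cannot be told apart from lower depth, and the error of every count between cultures is unknown.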
